A study of Mus musculus with 6 samples.

Results

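The Fc receptor genes are 6 rows of a table of 33924 genes measured by RNA sequencing in murine myeloid leukaemias. They were selected by gene symbol: Fcer1g, Fcgr1, Fcgr3, Fcgr4, Fcgr2b and Fcer1a. The comparison between leukaemias of different origin was already known to separate several of them when the set was drawn up. Their own values, and whether they passed the threshold set for all genes, are therefore given as a description with no p-value and support nothing. P-values are given only for genes outside the set, whose lists were also chosen with earlier results of these data known. Of the 6 rows, 5 had enough reads to enter the fit over 13406 genes, and Fcer1a did not.

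The leukaemias were started from LSK cells (3 libraries, called LSK 44, LSK 45 and LSK 46 after their numbers in the titles) or from GMP cells (3 libraries, GMP 5, GMP 11 and GMP 19). LSK cells are lineage-negative marrow cells with Sca-1 and Kit on their surface and include the stem cells. GMP are granulocyte-macrophage progenitors. Both kinds had been purified from mouse bone marrow and transduced by retrovirus with MLL-AF9, a fusion oncogene, and the label of every library in both groups names this oncogene. GFP-positive transduced cells had been expanded in vitro and transplanted, with wild-type marrow support cells, into syngeneic C57BL/6 mice given 950 cGy. Leukaemia cells from the marrow of moribund mice were then held in culture with 15% serum, SCF at 20 ng/mL, IL-3 at 10 ng/mL and IL-6 at 10 ng/mL. The labels name the source of each library by the purified cells it started from, and no untransduced cells were analysed here. Nothing in the labels ties the 3 libraries of each group to separate mice or transductions, so p-values measure the spread between these libraries only. Neither the age of the mice nor the promoter that drives the fusion is stated in the labels.

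Fc receptors bind the constant part of antibodies and tie antibody-coated targets to myeloid cells. The activating IgG receptors Fcgr1, Fcgr3 and Fcgr4 and the IgE receptor subunit Fcer1a bind antibody but rely for signalling on the common gamma chain, encoded by Fcer1g. The cytoplasmic tail of that chain carries an immunoreceptor tyrosine-based activation motif (ITAM), which recruits the kinase Syk once its tyrosines are phosphorylated. Fcgr2b is the inhibitory IgG receptor, with an inhibitory motif (ITIM) of its own that recruits phosphatases. In mouse marrow an antibody that sees both the Fcgr3 and the Fcgr2b product (CD16 and CD32) is the usual marker for sorting GMP, which stain strongly, from earlier progenitors. The labels do not state the sorting gates of these cells.

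The signalling motifs that separate the activating from the inhibitory arm can be read in the coding sequences of the GENCODE M21 transcripts. They are shown here because the balance of both arms is described below. Capitals mark the tyrosine codons, and both genes lie on chromosome 1. The ITAM of Fcer1g spans codons 65 to 79 of 86, and the ITIM of Fcgr2b spans codons 317 to 322 of 340.
Fcer1g ITAM: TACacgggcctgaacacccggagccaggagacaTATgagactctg
Fcgr2b ITIM: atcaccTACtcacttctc
Fcer1g was the 1 member of 6 whose coding sequence matched the ITAM letter pattern. The shorter ITIM pattern also matched Fcgr1 at 3 places, Fcgr4 at 1 and Fcer1g at 1, which is a match of letters and no evidence of a working motif.

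Fcgr2b and Fcgr3 are close relatives, and their coding sequences were identical at 86.7% of aligned bases, with 257 gap positions left out. That figure alone does not show kinship, since by the same measure Fcgr1 and Fcer1g reached 85.7%. The longest run common to Fcgr2b and Fcgr3 was 129 bases. It spans bases 278 to 406 of the Fcgr2b coding sequence and bases 263 to 391 of that of Fcgr3. It is printed in lower case throughout, since no base differs.
Fcgr2b and Fcgr3 shared run: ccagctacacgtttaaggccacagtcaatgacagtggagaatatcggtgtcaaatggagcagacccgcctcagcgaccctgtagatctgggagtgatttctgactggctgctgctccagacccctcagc
Of all 50-base windows, 12.8% in the Fcgr3 transcript and 4.75% in the Fcgr2b transcript also occurred in the other gene. No other pair of the 6 genes shared a 50-base window. No source used here states how reads that match both genes were counted, so the split of reads between Fcgr2b and Fcgr3 carries this uncertainty. Fcgr2b exons also overlap the gene model Gm38204, which has no row in the table.

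The shallowest library was LSK 44 with 16640929 counts and the deepest GMP 11 with 33885428. Levels are given as CPM, read counts scaled to a common library size with edgeR's trimmed mean of M-values (TMM), and a ± sign after a mean shows the SD over 3 libraries. A log2 fold change is the LSK-derived minus the GMP-derived level and has an approximate SE taken from the test statistic. A gene is called at an adjusted p under 0.05 in edgeR's quasi-likelihood test with Benjamini-Hochberg adjustment over all 13406 genes. Of all tested genes 25.7% were called, 11.8% higher and 13.9% lower in LSK-derived leukaemias. In 22.8% of tested genes every LSK-derived library lay below every GMP-derived library. The median log2 fold change of all tested genes was 0.01.

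Of the 5 tested Fc receptor genes, 4 were called lower in LSK-derived leukaemias, namely Fcer1g, Fcgr3, Fcgr4 and Fcgr2b, against 13.9% of all tested genes. Since this contrast chose the genes, nothing is read from that share. In the same 4 genes every LSK-derived library lay below every GMP-derived library, which 22.8% of tested genes did. Fcgr1 was not called, and its groups overlapped. The median log2 fold change of the 5 genes was -1.29. In bulk libraries fewer cells of a type and less RNA per cell cannot be told apart, and this holds for every difference given here.

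**Figure D1:**
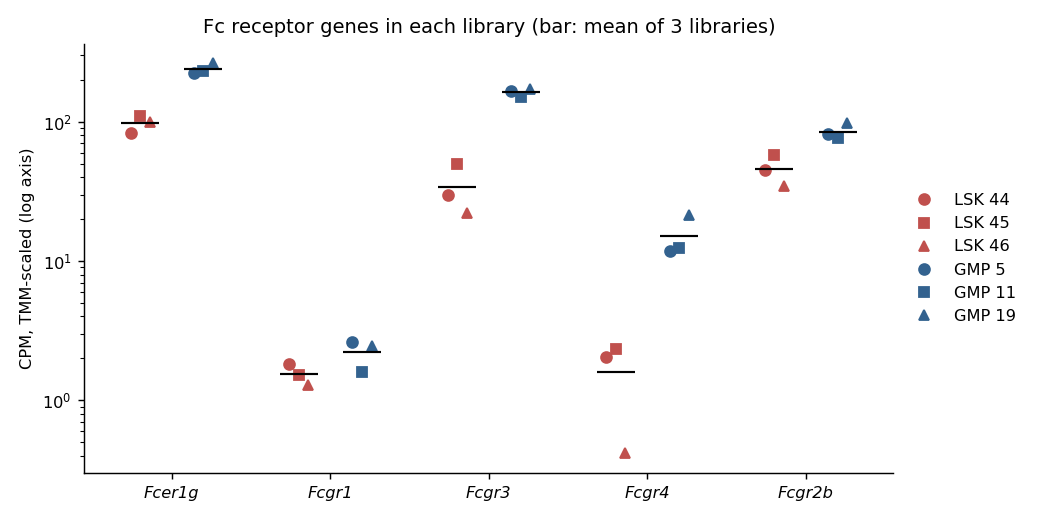
CPM of the 5 tested Fc receptor genes in each of the 6 libraries, on a log axis, with LSK-derived libraries in red left of GMP-derived libraries in blue and a bar at the mean of 3 libraries. Red and blue points stay apart for Fcer1g, Fcgr3, Fcgr4 and Fcgr2b and overlap for Fcgr1, and the lowest red point of Fcgr4 is LSK 46 at 0.417 CPM.

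Fcer1g, the shared signalling chain, was the most abundant member. LSK 44, LSK 45 and LSK 46 had 82.3, 110 and 100.01 CPM, against 224, 230 and 261 CPM for GMP 5, GMP 11 and GMP 19. The LSK-derived libraries were close to each other, with a highest to lowest ratio of 1.34, and all lay far below the GMP-derived ones. The means were 97.5 ± 14.2 CPM in LSK-derived leukaemias, against 238 ± 20.0 CPM in GMP-derived ones, and the log2 fold change was -1.29 ± 0.12, or 2.44-fold lower. Its mean level exceeded that of 89.6% of tested genes, and 6570 reads in LSK-derived and 22123 in GMP-derived libraries stood behind it.

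Fcgr3, the low-affinity activating IgG receptor, showed a wider gap than its signalling chain. LSK 44, LSK 45 and LSK 46 had 29.8, 49.4 and 22.0 CPM, against 167, 150 and 171 CPM for GMP 5, GMP 11 and GMP 19. The GMP-derived libraries were nearly level, with a highest to lowest ratio of 1.14, while the LSK-derived ones differed by a ratio of 2.25. LSK 45 was the highest of its group and still below every GMP-derived library. The means were 33.7 ± 14.1 CPM in LSK-derived leukaemias, against 163 ± 11.2 CPM in GMP-derived ones, with a log2 fold change of -2.27 ± 0.29, or 4.82-fold lower.

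Fcgr4, an activating receptor for mouse IgG2a and IgG2b, had the largest fold change of the members from a much lower level. LSK 44, LSK 45 and LSK 46 had 2.06, 2.35 and 0.417 CPM, against 11.8, 12.4 and 21.3 CPM for GMP 5, GMP 11 and GMP 19. LSK 46 stood far below the other LSK-derived libraries, and GMP 19 above the other GMP-derived ones. The means were 1.61 ± 1.04 CPM in LSK-derived leukaemias, against 15.2 ± 5.30 CPM in GMP-derived ones. The log2 fold change was -3.25 ± 0.59, or 9.48-fold lower, on 104 reads in LSK-derived and 1432 reads in GMP-derived libraries. It ranged from -3.68 without LSK 45 to -2.77 without LSK 46.

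Fcgr1, the high-affinity IgG receptor of monocytes and macrophages and the 1 member on chromosome 3, was rare in both groups. LSK 44, LSK 45 and LSK 46 had 1.81, 1.53 and 1.29 CPM, against 2.62, 1.60 and 2.46 CPM for GMP 5, GMP 11 and GMP 19. GMP 11 fell within the LSK-derived range. The means were 1.55 ± 0.262 CPM in LSK-derived leukaemias, against 2.23 ± 0.549 CPM in GMP-derived ones, from 100 and 202 reads. Its log2 fold change was -0.53 ± 0.28. With an SE of this size, a modest difference in either direction was not detectable at this depth.

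Fcgr2b, the inhibitory receptor, was also lower in LSK-derived leukaemias, by the smallest fold of the 4 called members. LSK 44, LSK 45 and LSK 46 had 44.9, 58.1 and 34.7 CPM, against 80.9, 75.8 and 97.2 CPM for GMP 5, GMP 11 and GMP 19. The groups did not overlap, but the gap from LSK 45 to GMP 11 was smaller than the range within either group. The means were 45.9 ± 11.7 CPM in LSK-derived leukaemias, against 84.6 ± 11.2 CPM in GMP-derived ones, with a log2 fold change of -0.88 ± 0.20, or 1.84-fold lower. Fcgr2b was the 1 member whose call was lost when a library was left out: it was not called without GMP 19 or without LSK 44, where its log2 fold change stayed below 0 and 3 members were called. With Fcgr2b and Fcgr3 summed into a single unit, which covers shared reads given to either gene but not reads that were discarded, the log2 fold change was -1.63.

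Fcer1a, the subunit that binds IgE on mast cells and basophils, had 2 reads in LSK 46, which is 0.0839 CPM, and 0 reads in the other 5 libraries. A count of 0 allows up to 3 reads, or 0.0885 CPM in the deepest library and 0.180 CPM in the shallowest, counting error alone. No difference can be drawn from these reads. Ms4a2, the beta chain of the same IgE receptor, was present in all libraries at 4.61 ± 0.704 CPM in LSK-derived leukaemias, against 3.78 ± 0.385 CPM in GMP-derived ones, and its groups overlapped (edgeR adjusted p = 0.321).

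The libraries of a group kept much the same order from gene to gene. LSK 46 was the lowest LSK-derived library in 4 of the 5 tested members and LSK 45 the highest in 4, and GMP 19 was the highest GMP-derived library in 4. Levels between genes are compared per kilobase of transcript. On that scale Fcer1g averaged 145 CPM per kb in LSK-derived and 354 in GMP-derived leukaemias. Fcgr3 averaged 25.0 and 121, Fcgr2b 12.95 and 23.9, Fcgr4 1.28 and 12.1, and Fcgr1 0.597 and 0.861 CPM per kb, each with the LSK-derived level given first. Fcer1g therefore exceeded the summed level of its ligand-binding partners Fcgr1, Fcgr3 and Fcgr4 in both groups. The order of Fcgr3 and Fcgr2b in LSK-derived leukaemias depends on the length used, since per kilobase of coding sequence they averaged 42.1 and 45.01 CPM. In GMP-derived leukaemias Fcgr3 was the higher of the pair on both lengths, at 203 against 83.0 CPM per coding kb.

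A ratio of reads within a library does not depend on how libraries are scaled. The ratio of Fcgr3 to Fcgr2b reads was 0.664, 0.851 and 0.633 in LSK 44, LSK 45 and LSK 46, against 2.07, 1.98 and 1.76 in GMP 5, GMP 11 and GMP 19. Reads of the inhibitory receptor thus outnumbered those of the activating one in each LSK-derived library, and the reverse held in each GMP-derived library. On the log2 scale the mean ratio was -0.50 ± 0.23 in LSK-derived and 0.95 ± 0.12 in GMP-derived leukaemias, a difference of -1.45 that lay between -1.58 and -1.36 when any 1 library was left out. Both genes enter the rule for the set, so no test is attached.

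Fcgr3 was also scarcer relative to the chain it signals through. The ratio of Fcgr3 to Fcer1g reads was 0.363, 0.448 and 0.220 in LSK 44, LSK 45 and LSK 46, against 0.744, 0.654 and 0.655 in GMP 5, GMP 11 and GMP 19, with no overlap. Fcgr2b kept closer to Fcer1g, at 0.546, 0.527 and 0.347 in LSK-derived libraries against 0.360, 0.330 and 0.372 in GMP-derived libraries, and there the groups overlapped. The Fcgr4 to Fcgr3 ratio was 0.0690, 0.0477 and 0.0190 in LSK 44, LSK 45 and LSK 46, against 0.0709, 0.0825 and 0.124 in GMP 5, GMP 11 and GMP 19. Every LSK-derived ratio lay below the GMP-derived ones, although LSK 44 nearly reached GMP 5.

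**Figure D2:**
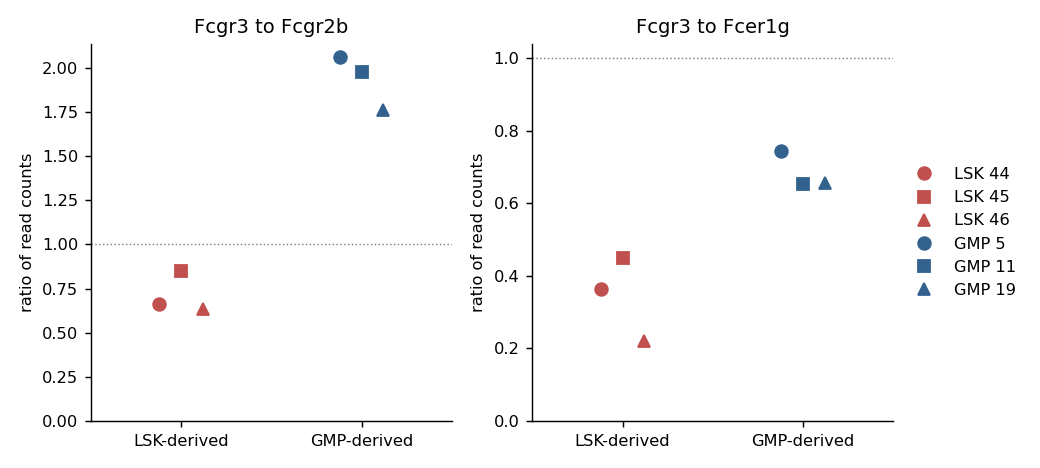
Ratio of read counts within each library, Fcgr3 to Fcgr2b on the left and Fcgr3 to Fcer1g on the right, with LSK-derived libraries in red left of GMP-derived libraries in blue and a dotted line at equal counts. The Fcgr3 to Fcgr2b ratio lies below 1 in all LSK-derived libraries and above 1 in all GMP-derived libraries.

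Beyond the set, 13 other genes for Fc receptors, receptor subunits and receptor-like proteins were listed, and 4 of them passed the filter on low counts. Of these, 1 was lower in LSK-derived leukaemias, the B-lineage receptor-like gene Fcrl1, and 0 were higher (list median log2 fold change -0.20). The shares of all tested genes were 13.9% lower and 11.8% higher. Fcrl1 had 0.182, 0.0785 and 0.0833 CPM in LSK-derived libraries against 0.902, 0.802 and 1.17 CPM in GMP-derived libraries. This was a log2 fold change of -3.10 ± 0.41 (edgeR adjusted p = 0.00324) on 7 reads against 89. The cytosolic antibody receptor Trim21 averaged 16.5 ± 1.26 CPM in LSK-derived leukaemias, against 16.8 ± 1.22 CPM in GMP-derived ones (edgeR adjusted p = 0.898). The neonatal receptor Fcgrt averaged 1.24 ± 0.558 and 1.61 ± 1.05 CPM in the same order (edgeR adjusted p = 0.67), and its log2 fold change of -0.38 became 0.17 without GMP 19. Fcamr, Fcmr, Pigr, Fcrl5 and Fcrl6 had 0 reads in all libraries, and Fcer2a, Fcrls, Fcrla and Fcrlb were too low to test.

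Other signalling adaptors, not all of which carry an ITAM, were examined beside the gamma chain. Of 2 tested genes 0 were called in edgeR, against 25.7% of all tested genes. However, 1 had an unadjusted p under 0.05, and DESeq2 called 1. That gene was Tyrobp, which encodes DAP12, at 239, 325 and 226 CPM in LSK-derived libraries against 327, 345 and 400 CPM in GMP-derived libraries. Its log2 fold change was -0.44 ± 0.15, with an edgeR adjusted p of 0.0751, a DESeq2 adjusted p of 0.0234 and a range of 0.0124 to 0.213 over the alternatives. Hcst, which encodes DAP10, averaged 9.64 ± 0.809 CPM in LSK-derived leukaemias, against 10.8 ± 3.49 CPM in GMP-derived ones (edgeR adjusted p = 0.644).

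Of 12 other receptors that pair with the gamma chain, 9 had a row and 5 were tested. Of these, 3 were lower and 0 higher in LSK-derived leukaemias (list median log2 fold change -0.79). Over all tested genes 13.9% were lower and 11.8% higher. Clec4e encodes Mincle, a receptor for mycobacterial glycolipid. It had 30.9, 43.2 and 31.5 CPM in LSK-derived libraries against 79.9, 66.9 and 65.7 CPM in GMP-derived libraries, a log2 fold change of -1.01 ± 0.15 (edgeR adjusted p = 0.00511). Its neighbour and partner Clec4d averaged 12.9 ± 3.13 CPM in LSK-derived leukaemias, against 22.3 ± 1.93 CPM in GMP-derived ones, a log2 fold change of -0.79 ± 0.18 (edgeR adjusted p = 0.0201). Lilra6, a paired immunoglobulin-like receptor with near-identical relatives among the Pira genes, averaged 1.26 ± 0.185 and 3.26 ± 1.60 CPM in the same order, a log2 fold change of -1.37 ± 0.38 (edgeR adjusted p = 0.0371). Reads of Lilra6 may have been split with those relatives. The calls of Clec4d and Lilra6 were less stable than that of Clec4e: without GMP 19, LSK 44 or LSK 46 the list count was 1. Clec4d lost its call without GMP 11 as well, and Lilra6 without LSK 45. Clec4n and Pira2 were not called, at 2.48 ± 1.36 and 2.30 ± 0.863 CPM in LSK-derived against 2.71 ± 3.06 and 3.21 ± 2.07 CPM in GMP-derived leukaemias.

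**Figure D3:**
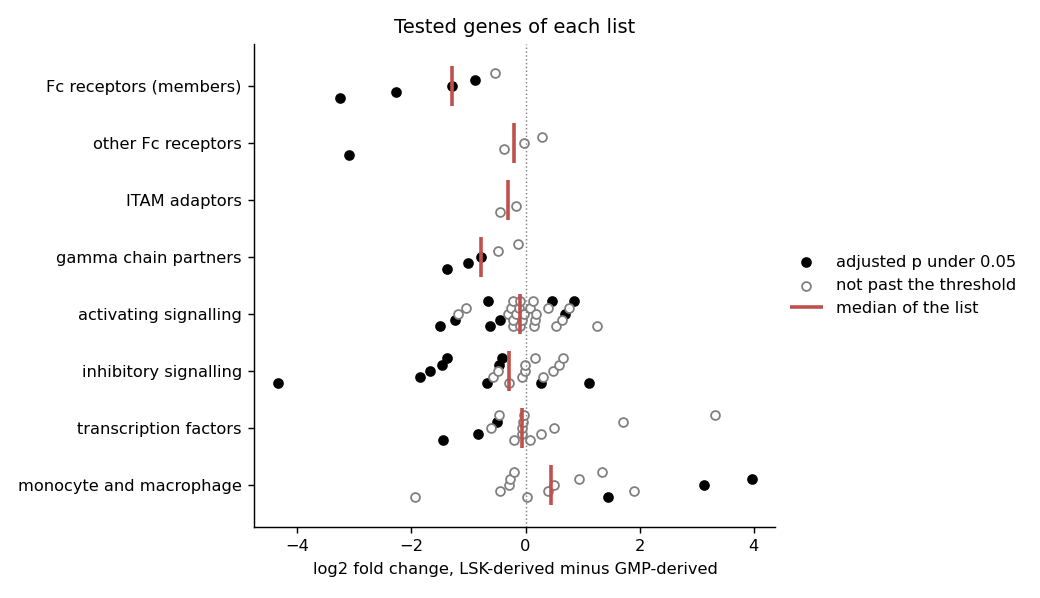
Log2 fold change (LSK-derived minus GMP-derived) of each tested gene in the Fc receptor set and in 7 other lists, with filled points for an adjusted p under 0.05, open points for the rest and a red line at the list median. The list medians are -1.29 for the Fc receptors, -0.79 for gamma-chain partners, -0.10 for activating signalling and -0.28 for inhibitory signalling. The list labelled ITAM adaptors holds signalling adaptors, not all of which carry an ITAM.

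The pathway downstream of activating Fc receptors was called about as often as all genes. Of 31 tested genes 5 were lower, 3 higher and 23 not called in LSK-derived leukaemias, against 13.9% lower and 11.8% higher of all tested genes, with a median log2 fold change of -0.10. Syk, the kinase that docks on the ITAM, had 205, 222 and 180 CPM in LSK-derived libraries against 214, 232 and 260 CPM in GMP-derived libraries, which overlapped (edgeR adjusted p = 0.171). Lyn, the Src-family kinase that phosphorylates the ITAM, averaged 108 ± 13.9 CPM in LSK-derived leukaemias, against 134 ± 33.4 CPM in GMP-derived ones (edgeR adjusted p = 0.265). Lcp2, the adaptor SLP-76, had 77.5, 90.3 and 78.5 CPM in LSK-derived libraries against 163, 181 and 233 CPM in GMP-derived libraries, a log2 fold change of -1.23 ± 0.14 (edgeR adjusted p = 0.00211). Prkcb, a protein kinase C, averaged 13.6 ± 2.51 CPM in LSK-derived leukaemias, against 38.3 ± 5.44 CPM in GMP-derived ones, a log2 fold change of -1.50 ± 0.16 (edgeR adjusted p = 0.00176). The exchange factor Vav3, the kinase Prkcd and the GTPase Rac2 were lower too, at log2 fold changes of -0.66, -0.63 and -0.45. The 3 higher genes were Cblb, Grb2 and Plcg1. Cblb, a ubiquitin ligase that restrains such signalling, had 40.0, 42.4 and 49.7 CPM in LSK-derived libraries against 24.7, 24.9 and 23.7 CPM in GMP-derived libraries, a log2 fold change of 0.85 ± 0.10 (edgeR adjusted p = 0.00207).

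A list drawn up for the inhibitory side held phosphatases, adaptors, receptors with ITIMs and a kinase. Some of its genes, Ptprc and Ptpn11 among them, can also promote signalling, so its counts do not measure an inhibitory arm. Of 21 tested genes on this list, 8 were lower, 2 higher and 11 not called (median log2 fold change -0.28). Of all tested genes 13.9% were lower and 11.8% higher. The inositol phosphatase Inppl1, or SHIP2, had 17.7, 12.1 and 14.8 CPM in LSK-derived libraries against 53.9, 50.8 and 56.4 CPM in GMP-derived libraries, a log2 fold change of -1.85 ± 0.14 (edgeR adjusted p = 0.000609). Inpp5d, which encodes SHIP1, the phosphatase that Fcgr2b is best known to recruit, averaged 231 ± 7.55 CPM in LSK-derived leukaemias, against 241 ± 21.1 CPM in GMP-derived ones (edgeR adjusted p = 0.59). The receptor Sirpa, which engages CD47, had 74.4, 113 and 71.5 CPM in LSK-derived libraries against 169, 221 and 282 CPM in GMP-derived libraries, a log2 fold change of -1.38 ± 0.25 (edgeR adjusted p = 0.0112). LSK 45 was again the highest of its group. The sialic acid receptor Siglece averaged 0.162 ± 0.0439 CPM in LSK-derived leukaemias, against 3.42 ± 2.71 CPM in GMP-derived ones, on 11 reads against 333, a log2 fold change of -4.34 ± 0.70 (edgeR adjusted p = 0.00653) that was -3.46 without GMP 19. The phosphatases Ptprc and Ptpn6, the adaptor Dok1 and the receptors Lilrb4 and Cd300a were also lower. The 2 higher genes were the phosphatase Ptpn11 and the lectin receptor Clec12a, at log2 fold changes of 0.26 and 1.12. The list count of 10 was 6 without GMP 19, 5 without LSK 46 and 4 without LSK 44.

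Promoters of the members were read from RefSeq on GRCm38.p6, as 250 bases before to 50 bases after each transcription start. They are shown because factors listed below are known regulators of these genes. All 6 members matched this table. The PU-box letters GAGGAA, the core bound by the myeloid factor PU.1, were searched on both strands and occur in 28.3% of 32851 promoters. They were found in the windows of Fcgr4, Fcgr3, Fcgr1 and Fcer1a, and not in those of Fcgr2b and Fcer1g. Of these, the match nearest to each start is printed for the IgG receptors. It lies on the opposite strand in each, so the capitals read TTCCTC.
Fcgr4, chr1:171018877-171018936, plus strand: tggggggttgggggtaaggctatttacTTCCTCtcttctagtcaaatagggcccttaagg
Fcgr3, chr1:171059377-171059436, minus strand: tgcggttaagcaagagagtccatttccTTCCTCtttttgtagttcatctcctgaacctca
Fcgr1, chr3:96293992-96294051, minus strand: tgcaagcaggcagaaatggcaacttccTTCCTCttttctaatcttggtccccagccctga
The match begins 22 bases before the start of Fcgr4, 55 before that of Fcgr1, and 6 or 15 before the 2 annotated starts of Fcgr3. The C/EBP letters TTGCNNNAA occur in 9.56% of all promoters and in 0 of the members. The GATA letters AGATAA occur in 11.2% of all promoters and in that of Fcer1a alone among the members. These motifs did not overlap each other in the members. A match of letters is not a binding site, and nothing follows about a factor where there is none.

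Of 15 transcription factors reported at Fc receptor genes, all tested, 3 were lower, 0 higher and 12 not called in LSK-derived leukaemias (median log2 fold change -0.07), against 25.7% called of all tested genes. Cebpb, a C/EBP factor of myeloid activation, had 10.8, 8.36 and 8.62 CPM in LSK-derived libraries against 19.2, 27.3 and 29.1 CPM in GMP-derived libraries, a log2 fold change of -1.45 ± 0.19 (edgeR adjusted p = 0.00308). Cebpa, which drives the granulocyte-macrophage fate, had 87.8, 127 and 85.3 CPM in LSK-derived libraries against 180, 171 and 184 CPM in GMP-derived libraries, a log2 fold change of -0.83 ± 0.16 (edgeR adjusted p = 0.0112). Spi1, which encodes PU.1, had 116, 132 and 107 CPM in LSK-derived libraries against 126, 161 and 202 CPM in GMP-derived libraries, which overlapped (edgeR adjusted p = 0.0982). Gata2, a factor of stem cells and mast cells, averaged 77.6 ± 26.6 CPM in LSK-derived leukaemias, against 23.8 ± 18.9 CPM in GMP-derived ones, without overlap and without a call (edgeR adjusted p = 0.0699). DESeq2 called 7 of the 15, and edgeR without GMP 5 called 5.

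Fcgr2b, Fcgr4 and Fcgr3 follow each other on chromosome 1, and Fcer1g lies beyond further genes on the same chromosome. In genome order, taken from RefSeq, 17 other genes around them were listed and 11 tested. Of these, 1 was higher, 1 lower and 9 not called in LSK-derived leukaemias (median log2 fold change 0.07). The share called over all tested genes was 25.7%. Cfap126, a cilium gene next to Fcgr3, averaged 0.409 ± 0.0700 CPM in LSK-derived leukaemias, against 1.31 ± 0.552 CPM in GMP-derived ones, a log2 fold change of -1.65 ± 0.39 (edgeR adjusted p = 0.023). That call was lost without LSK 44 and without LSK 46, at adjusted p of 0.0762 and 0.0906. Pcp4l1 went the other way, with 11.7, 14.1 and 23.5 CPM in LSK-derived libraries against 3.03, 5.20 and 5.95 CPM in GMP-derived libraries, a log2 fold change of 1.80 ± 0.35 (edgeR adjusted p = 0.0125). Sdhc, a subunit of respiratory complex II between the IgG receptor genes and Fcer1g, averaged 131 ± 2.96 CPM in LSK-derived leukaemias, against 138 ± 5.08 CPM in GMP-derived ones (edgeR adjusted p = 0.452).

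**Figure D4:**
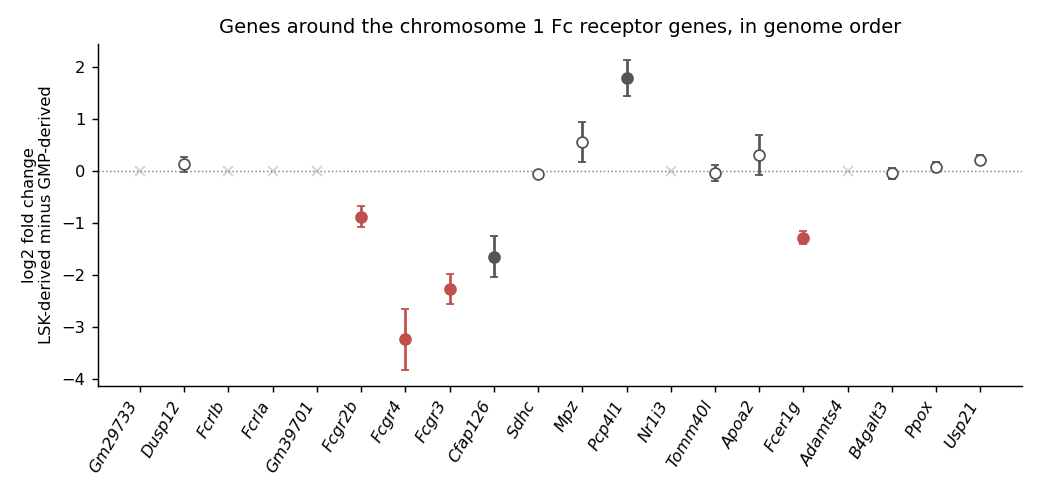
Log2 fold change (LSK-derived minus GMP-derived) with its approximate SE for most of the genes around the chromosome 1 Fc receptor genes, in genome order and not to scale, with members in red, filled points for an adjusted p under 0.05 and crosses for genes not tested. The 4 members lie between -3.25 and -0.88, and Pcp4l1 between them lies at 1.80.

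Fc receptors mark several mature myeloid cell types, so markers of these cells are given beside them. The counts stand against 11.8% higher and 13.9% lower of all tested genes. Of 14 tested monocyte and macrophage markers 3 were higher (Cx3cr1, Mrc1 and Mertk), 0 lower and 11 not called in LSK-derived leukaemias. Mrc1 lost its call whichever library was left out, Mertk without any of the libraries except GMP 19, and Cx3cr1 without GMP 19. The whole list summed to 1039 to 2578 CPM in LSK-derived libraries, against 641 to 1926 CPM in GMP-derived ones. Adgre1, the macrophage marker F4/80, had 14.2, 43.7 and 11.8 CPM in LSK-derived libraries against 159, 30.0 and 79.1 CPM in GMP-derived libraries, which overlapped (edgeR adjusted p = 0.113). The neutrophil list had 1 higher (Ly6g), 3 lower (Ngp, S100a9 and Csf3r) and 5 not called of 9 tested genes, with summed levels of 70.8 to 204 CPM in LSK-derived libraries, against 49.5 to 632 CPM in GMP-derived ones. GMP 19, the highest GMP-derived library for 4 of the 5 members, had the neutrophil sum of 632 CPM, with S100a8 and S100a9 at 192 and 195 CPM. GMP 5 had the sum of 49.5 CPM, below every LSK-derived library. Its Fcgr3 and Fcer1g, at 167 and 224 CPM, were above every LSK-derived library. A link between neutrophil markers and the members was not tested. Without LSK 44 the calls of Ly6g, Ngp, S100a9 and Csf3r were all lost. Without LSK 46 those of Ngp, S100a9 and Csf3r were lost, and Ngp and S100a9 were also lost without GMP 11, GMP 19 or LSK 45. Of 6 tested mast cell and basophil markers, Mcpt8 and Slc18a2 were higher, Hdc was lower and 3 were not called. The whole list summed to 58.2 to 70.6 CPM in LSK-derived libraries, against 76.9 to 298 CPM in GMP-derived ones, with GMP 5 highest. In GMP 5, Hdc had 185 CPM and Cpa3 88.5 CPM, while Cpa3 had 0.68 and 0.97 CPM in GMP 11 and GMP 19. The mast cell proteases Mcpt1, Mcpt4 and Tpsab1 had 0 reads in all libraries. Reads in LSK-derived against GMP-derived libraries were 14 and 0 for Cma1, 6 and 0 for Tpsb2 and 1 and 2 for Mcpt2. Eosinophil markers, of which Epx and Prg2 were higher and 1 was not called, summed to 9.64 to 57.1 CPM in LSK-derived libraries, against 2.57 to 8.32 CPM in GMP-derived ones. Prg2 lost its call without GMP 19, LSK 44 or LSK 46. Dendritic cell markers, of which Flt3 was higher and 2 were not called, summed to 50.5 to 72.0 CPM in LSK-derived libraries. In GMP-derived libraries the sum was 9.22 to 24.3 CPM. Most of each sum was Flt3, which is also on the list of stem and progenitor markers. Flt3 had 41.6, 58.6 and 44.9 CPM in LSK-derived libraries against 6.43, 15.1 and 17.3 CPM in GMP-derived libraries.

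Lymphoid markers were examined in the same way, against the same 11.8% higher and 13.9% lower of all tested genes. B cell markers summed to 158 to 302 CPM in LSK-derived libraries, against 23.5 to 199 CPM in GMP-derived ones, with Ms4a1 and Pax5 at 0 reads in all. Of the 3 tested, Cd79b was higher and Blnk lower, but Blnk was not called without LSK 44 or LSK 46. T and NK cell markers summed to 0.481 to 1.37 CPM in LSK-derived libraries, against 0.266 to 0.369 CPM in GMP-derived ones, with Cd3e, Gzma and Ncr1 at 0 reads in all, and Klrb1c, the 1 tested, was higher. The part of any other cell type in the Fc receptor differences was not tested.

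The labelled origins were also set against progenitor genes, beside 11.8% higher and 13.9% lower of all tested genes. Of 11 tested stem and progenitor markers 4 were higher (Ly6a, Kit, Cd48 and Flt3), 2 lower (Hoxa9 and Ctsg) and 5 not called in LSK-derived leukaemias. Ly6a, which encodes the Sca-1 used to define LSK cells, averaged 1.83 ± 1.03 CPM in LSK-derived leukaemias, against 0.255 ± 0.0840 CPM in GMP-derived ones, low in both. Kit averaged 193 CPM in LSK-derived leukaemias, against 115 CPM in GMP-derived ones. Hoxa9 and Meis1, targets of MLL fusions, were well expressed in both groups, at 191 and 122 CPM in LSK-derived against 328 and 120 CPM in GMP-derived leukaemias. The table names no fusion transcript.

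The genes with the most similar pattern over the 6 libraries were found by Pearson's r of log2(CPM + 0.5) among genes with a mean of at least 5 CPM. Nearest to Fcgr3 were Zfp709, Zbtb8a and Pdcd4, with r = 0.9995 for the first. Nearest to Fcer1g were Adprh, Tst and Mob3c, with r = 0.9981 for the first. Nearest to Fcgr2b were Pld4, Evi5 and Itgb5 (0.9996 for Pld4), to Fcgr4 Trappc2l, Aldh3b1 and Secisbp2l (0.9970 for Trappc2l), and to Fcgr1 Eif1, Mtmr4 and Rps6ka2 (0.9938 for Eif1). The 6 points fall into 2 groups and share their library scaling, and high values were common: 1118 genes exceeded 0.9 with Fcgr3 and 80 with Fcgr1.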

How the data were processed

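The values deposited by the authors are raw, unnormalized counts of reads for each gene in 6 libraries. Per the labels' protocols, RNA came from TRIzol extraction and went through the TruSeq RNA kit. The submitters' processing notes name the build mm9 and the tools HTSeq 0.6.1, STAR 2.4 and DESeq2 without their roles. No annotation or strand setting is stated, so reads of overlapping genes may have gone to either.

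Counts were fitted with edgeR 4.0.16 in R 4.3.3 (filterByExpr, TMM, robust glmQLFit, glmQLFTest) over 6 libraries with no covariate, and p-values were adjusted by Benjamini-Hochberg over 13406 genes. CPM uses TMM-scaled totals of tested genes. Fcer1a, not tested, and summed levels of marker lists are given over the library total, without TMM. The SE is the absolute log2 fold change over the square root of F. Alternatives were other size factors, no filter, DESeq2 1.42.0, limma voom 3.58.1, each library left out, and Fcgr2b summed with Fcgr3. The edgeR step was tested on simulated data.

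The members and lists were chosen with earlier results of these data known. Named genes are all members, up to 4 called genes per list by smallest p, genes fixed by name and, where a count is 5 or fewer, its genes. The 3 genes most like each member were taken by r. Others (Dok1, Cd300a, Lilrb4, Ptpn6, Adgre1, Cpa3, Cma1, Tpsb2, Mcpt2, Mmp8, S100a8) were named after their values were seen. Some rows carry older symbols (Sykb for Syk, Sfpi1 for Spi1, Faim3 for Fcmr), matched through RefSeq synonyms. RefSeq (GRCm38.p6) gave promoters and gene order, and GENCODE M21 gave transcripts, whose lengths may differ from those the authors counted on. A few listed genes and a motif are counted or searched but not reported here by name. Floors cover counting error only.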

Additional observations from a re-analysis of the deposited data

How the results depend on the processing

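Among the called genes whose fold change was recomputed, which leaves out Prkcd, Rac2, Grb2, Plcg1, Ptpn6, Dok1, Lilrb4, Cd300a, Ptpn11, Clec12a, Cd48 and Ctsg, no direction turned. As a description of the chosen members, leaving out 1 library at a time gave log2 fold changes of -1.39 to -1.18 for Fcer1g, -2.66 to -2.03 for Fcgr3, -1.09 to -0.71 for Fcgr2b and -0.72 to -0.41 for Fcgr1. The number of called members ran from 3 to 4. In the full comparison 3444 genes were called, but 1830 without LSK 44 and 1750 without LSK 46, so those libraries weigh most on the number of calls. DESeq2 called 4275. With upper-quartile factors the split was 1753 higher and 1730 lower, against 1577 and 1867 with TMM. Leaving out 1 library gave 0 to 1 called signalling adaptors, 1 to 3 gamma-chain partners and 6 to 10 genes of the activating list. It gave 4 to 10 of the inhibitory list, 3 to 5 transcription factors and 1 to 2 neighbouring genes. DESeq2 called 1 signalling adaptor and 7 transcription factors, and the cause was not tested. No paired analysis was possible because the groups share no replicate numbers. Few reads limit the precision for Fcgr1, Fcgr4 and Fcer1a.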
